A study of Oryza sativa with 26 samples.

Results

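MADS14, MADS15, MADS18 and MADS34 are MADS-box transcription factor genes that are known for their work at the floral transition of rice, and their transcripts are described here in the lamina joint, the collar of tissue that joins the blade of a leaf to its sheath. Every probe set whose gene symbol or synonym was one of these names, with or without the prefix Os, was taken, and the brightest probe set stands for its gene. This found all 4 genes, of 17905 genes that have a probe set matching a single gene, through 10 of the 57258 probe sets tested. MADS14 (LOC4334140) had 4 probe sets, MADS15 (LOC4342214) had 4, MADS18 (LOC4343851) had 1 and MADS34 (LOC4334141) had 1. No filter on low values was applied, so none of the 4 was dropped.

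All plants were of the japonica cultivar Zhonghua 11 and were raised in a greenhouse under 12 h of light at 28 °C and 12 h of dark at 22 °C, with no treatment or mutant. Joints were cut by hand from the last leaf, from the leaf before it (the second joint) and from the leaf before that (the third joint) at stage 2, when they were young, stage 4, when they were mature with the blade still upright, stage 5, when the leaf angle opened, and stage 6, when they were senescent and dehydrated. Harvests of the last joint fell on days 60, 65, 70 and 80 after sowing, those of the second joint on days 55, 60, 65 and 75, and those of the third joint on days 50, 55, 60 and 70. Green leaf 0.5 cm long next to the third joint, taken at stage 4 on day 55, was the leaf control. Each of the 13 groups had 2 arrays, 26 in all. The labels call them biological replicates but do not state whether they came from separate plants or harvests, so each p-value covers only the spread between these arrays.

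In rice, florigen made in the leaf under inductive day length moves to the shoot apex and switches on MADS-box genes there, and MADS14 and MADS15 are also known to respond to florigen in the leaf itself. MADS14, MADS15 and MADS18 belong to the APETALA1/FRUITFULL branch of the family, and MADS34, also called PAP2, to the SEPALLATA branch; together they are known for giving the shoot tip the identity of an inflorescence. In the RefSeq gene table MADS34 is the next protein-coding gene after MADS14.

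The values are log2 expression per probe set, as the authors normalised them with RMA, so a step of 1 is a 2-fold difference. Levels of different probe sets cannot be set against each other. Array medians ran from 5.08 to 5.17. The upper quartile was 7.50 on replicate 1 of the second joint at stage 5 and lay between 7.90 and 8.07 on the other arrays. The Gapdh control read 1.47 to 3.78 higher at its 3′ than at its 5′ probe set, the top of that range being replicate 2 of the third joint at stage 4, against 1.95 in replicate 1. Without one of these 2 arrays, some differences of MADS14, MADS15 or MADS34 moved by over 1.5 times or changed their call. Those values are also given. The tissue labels were checked with LG1, the ligule and joint regulator, which read 7.52 to 9.89 in the joints, against 5.84 and 6.03 in the leaf, and was 3.01 higher in the third joint at stage 4 than in the leaf (limma adjusted p = 0.000608).

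MADS34 separated the leaf positions most. In the last joint its 2 arrays read 10.62 and 10.62 at stage 2, 11.42 and 12.05 at stage 4, 11.11 and 11.09 at stage 5, and 11.18 and 11.17 at stage 6. In the second joint they read 6.32 and 3.75, then 9.55 and 9.50, then 7.54 and 9.39, then 9.60 and 9.74 at the same stages. In the third joint they read 3.46 and 4.78, then 4.57 and 4.26, then 5.90 and 5.90, then 5.71 and 6.61. The 8 arrays of the last joint were thus all above the 16 arrays of the other joints, and the third joint stayed below every second joint array but those of stage 2.

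MADS15 was also high throughout the last joint. Its arrays there read 11.46 and 11.92 at stage 2, 11.85 and 11.93 at stage 4, 11.34 and 11.30 at stage 5, and 11.35 and 11.14 at stage 6. The second joint gave 6.95 and 5.07, 9.56 and 10.08, 9.40 and 9.51, and 9.98 and 10.24, and the third joint gave 8.77 and 6.54, 6.77 and 3.85, 7.99 and 8.54, and 9.78 and 9.05. Every last joint array lay above every array of the other joints, while the second and the third joint overlapped.

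MADS14 followed the same order with smaller gaps. The last joint read 11.58 and 11.84, 12.19 and 12.29, 12.14 and 12.07, and 12.11 and 12.01 over stages 2, 4, 5 and 6. The second joint read 9.99 and 8.10, 11.74 and 11.87, 11.67 and 11.71, and 11.92 and 11.93, and the third joint 10.16 and 8.84, 9.89 and 7.50, 10.47 and 10.63, and 11.11 and 10.88. The second joint lay within the range of the last joint at all but its youngest stage, and the third joint stayed below the last joint on every array.

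MADS18 had no such order. Its arrays ran from 10.96 to 11.80 in the last joint (median 11.40), from 10.69 to 12.05 in the second (median 11.54) and from 10.68 to 12.08 in the third (median 11.88), so that the 3 positions overlapped almost wholly.

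**Figure D1:**
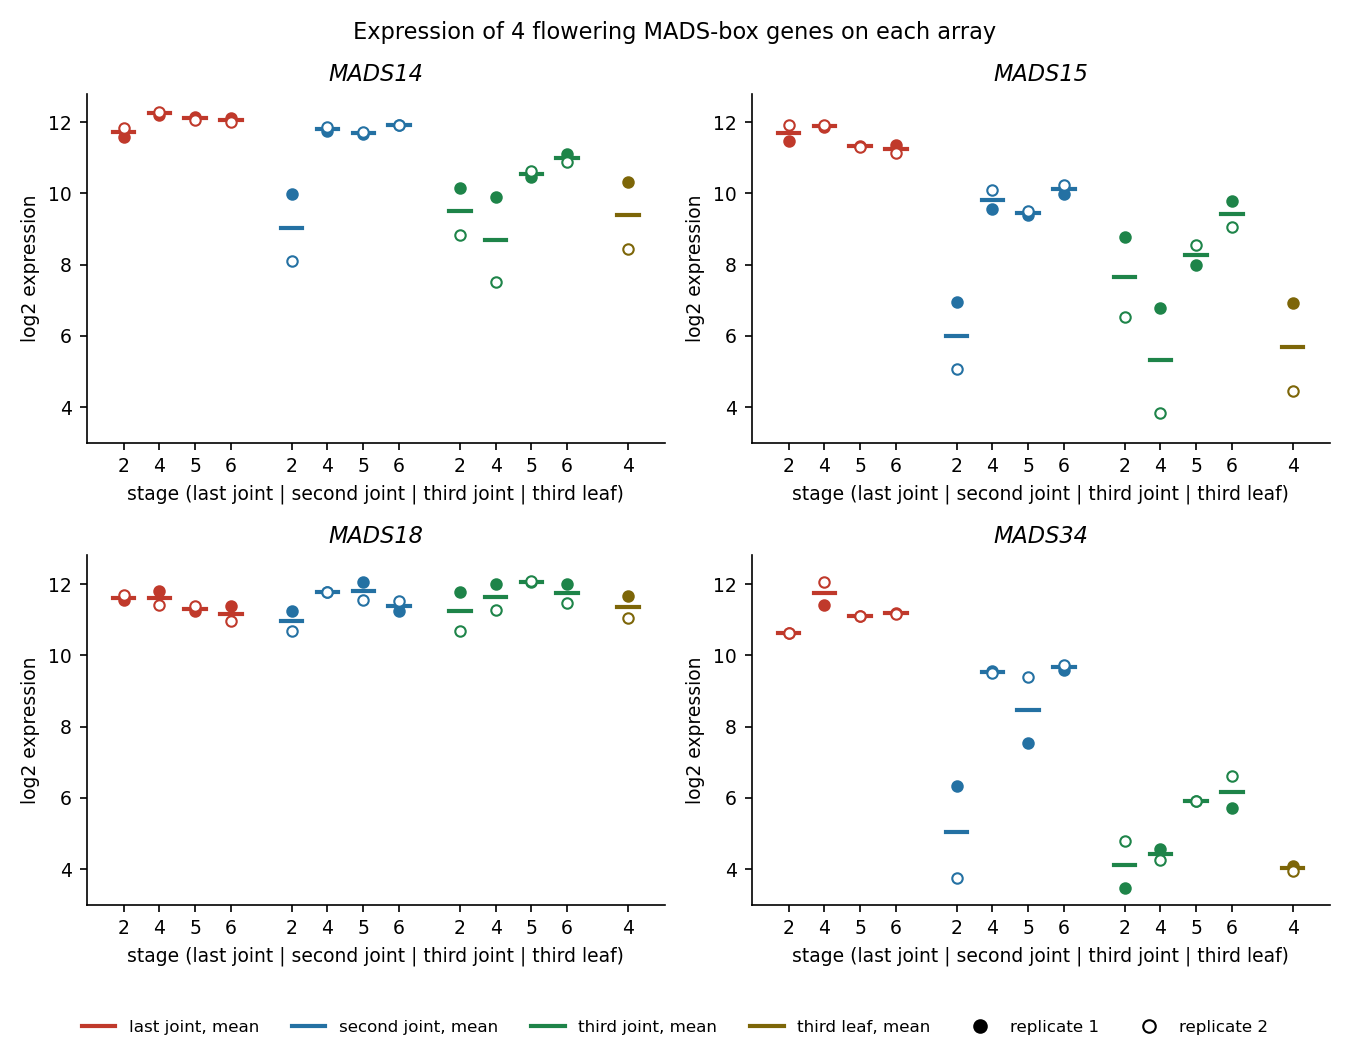
Log2 expression of MADS14, MADS15, MADS18 and MADS34 on each array (circles; filled for replicate 1, open for replicate 2), with the mean of each group (bar), by stage for each joint, from the last to the third, and for the third leaf at stage 4. MADS34 lies between 10.62 and 12.05 in the last joint and between 3.46 and 6.61 in the third joint, while MADS18 lies between 10.68 and 12.08 in all joints.

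The first comparison set the leaf positions against each other, with the 4 stages averaged. To be called, a difference had to be at least 2-fold with limma's adjusted p (Benjamini-Hochberg over all probe sets tested) under 0.05. The fit gives each probe set 1 spread for all 13 groups, so arrays outside a comparison also shape its p-value. Of the 4 genes, 3 were called between the last and the third joint, each higher in the last, where 1.14% of all probe sets were called. MADS34 averaged 11.16 in the last joint and 5.15 in the third, a difference of 6.01 ± 0.318 (SE; limma adjusted p = 7.51e-08). Its arrays in the third joint at stages 2 and 4, at 3.46 to 4.78, lay under the array medians and no detection call was used here, so no fold is given for this difference. Among all probe sets tested it ranked first by size for a rise in the last joint, and it kept rank 1 in 35 of 35 alternative fits. Several of the 35 could not move this rank. They left out an array outside the comparison or changed only p-values. The same limit holds for every rank given below. MADS15 averaged 11.53 and 7.66, a difference of 3.87 ± 0.434 (limma adjusted p = 0.000151), which ranked 2 (2 to 42 in the alternatives). Its replicate 2 in the third joint at stage 4, at 3.85, also lay under the array medians, so no fold is given here either. MADS14 averaged 12.03 and 9.94, a difference of 2.09 ± 0.338 or 4.27-fold (limma adjusted p = 0.00198), and ranked 32 (16 to 452). MADS18 averaged 11.42 and 11.67 and was not called, with a difference of -0.24 and a 95% interval from -0.60 to 0.11 (limma adjusted p = 0.492). The 3 calls held in all 26 fits that left out 1 array and in the 9 other alternatives.

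Between the last and the second joint, 0.189% of all probe sets were called, and among them were 2 of the 4 genes. MADS34 averaged 11.16 in the last joint and 8.17 in the second, a difference of 2.98 ± 0.318 (SE; limma adjusted p = 0.000897), rank 1 in the fit and in 33 of 35 alternatives (1 to 6 over them). MADS15 averaged 11.53 and 8.85, a difference of 2.68 ± 0.434 (limma adjusted p = 0.00791), rank 2 (1 to 23). MADS14 differed by 0.92 and was not called (limma adjusted p = 0.278; 95% interval 0.20 to 1.63), and MADS18 differed by -0.0622 (adjusted p = 0.946; interval -0.41 to 0.29). The calls for MADS34 and MADS15 were also made in all 26 fits without 1 array and in the 9 other alternatives.

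Between the second and the third joint, 0.375% of all probe sets were called, MADS34 among them and the other 3 genes not. MADS34 averaged 8.17 in the second joint and 5.15 in the third, a difference of 3.02 ± 0.318 (SE; limma adjusted p = 0.000241). MADS14 differed by 1.18 (adjusted p = 0.0864) and MADS15 by 1.19 (adjusted p = 0.181). Both were called without replicate 1 of the third joint at stage 4, MADS14 at 1.48 (adjusted p = 0.0138) and MADS15 at 1.55 (0.0359), and MADS14 also without replicate 2 of the second joint at stage 2, at 1.42 (0.0243). MADS14 was at 0.88 (adjusted p = 0.188) and MADS15 at 0.82 (0.404) without replicate 2 of the third joint at stage 4. MADS18 differed by -0.18 (adjusted p = 0.667; 95% interval -0.53 to 0.17). Without the 2 arrays that stand apart, the differences between the last and the third joint were 5.97 for MADS34, 3.51 for MADS15 and 1.79 for MADS14, and all 3 were still called.

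At every stage the last joint was harvested 10 days later than the third and 5 days later than the second, so leaf position and plant age cannot be told apart at a given stage. Since these are whole pieces of tissue, fewer cells of a type and less RNA per cell cannot be told apart either. Of 12 panicle and flower MADS-box markers, 0 were called by limma in any of the 3 position comparisons, with 5 at an unadjusted p under 0.05 for the last against the third joint, 3 for the last against the second and 2 for the second against the third. Their summed level, the log2 of the sum of unlogged values, ran from 9.31 to 9.90 in the last joint. It ran from 9.15 to 9.31 in the second and from 9.06 to 9.69 in the third. Bright probe sets weigh most in this sum, such as MADS16 and MADS1. In the last joint MADS16 averaged 9.06 at stage 2 and MADS1 8.44 at stage 6. Across the 3 position comparisons, in the order given above, limma called 1.14%, 0.189% and 0.375% of all probe sets. At shares this low, 0 calls among 12 genes cannot decide whether the markers differed between positions. On every array 6 of the 12, MADS3, MADS6, MADS7, MADS8, MADS13 and MADS58, stayed at or under 4.48, below the array medians. MADS16, at 6.78 to 9.28, and MADS4, at 6.05 to 7.06, lay above the medians on every array. That includes the leaf, with group means of 8.54 and 6.32. MADS1, MADS2, MADS5 and MADS17 lay on both sides of the medians. MADS1, the lemma and palea identity gene, was 0.73 higher in the last than in the third joint, under 2-fold (limma adjusted p = 0.00206). This average covers an uneven gap. In the last and the third joint its group means were 3.95 and 4.51 at stage 2, and 8.44 and 6.66 at stage 6. The light-harvesting gene RCABP69, a green leaf marker, was 1.15 higher in the last than in the second joint (limma adjusted p = 0.0138). The part of either in the MADS results was not tested.

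The gap between the last and the third joint was then taken at each stage. MADS34 was called at all 4 stages, with differences of 6.50, 7.32, 5.20 and 5.01 at stages 2, 4, 5 and 6 (limma adjusted p = 6.25e-06, 7.66e-05, 0.00204 and 0.00395), where 5.9%, 0.421%, 0.961% and 0.311% of all probe sets were called. The stage 6 call was lost without replicate 1 of the third joint at stage 6 (4.56, adjusted p = 0.0579). Without replicate 2 of the third joint at stage 4, the array with the highest Gapdh difference, MADS34 was at 7.17 there (adjusted p = 0.00236).

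MADS15 differed by 4.03 at stage 2 (limma adjusted p = 0.00703) and by 6.57 at stage 4 (adjusted p = 0.0025), both called, and by 3.06 at stage 5 (0.11) and 1.83 at stage 6 (0.432), neither called. The stage 2 call was lost without replicate 2 of the last joint at stage 2 (3.80, adjusted p = 0.0647) or replicate 2 of the third joint at stage 2 (2.92, 0.123), and the stage 4 call with the Gapdh difference as a covariate (5.17, 0.0626). Without replicate 2 of the third joint at stage 4, which read 3.85 and lay under the array medians, the stage 4 difference was 5.11 and still called. The stage 5 gap was called without replicate 1 or replicate 2 of the third joint at stage 4. Both arrays are outside that comparison and the gap stayed at 3.06, so only its p-value could change.

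MADS14 was called at stage 4, at 3.55 (limma adjusted p = 0.0272), and not at stage 2 (2.21, adjusted p = 0.0512), stage 5 (1.55, 0.357) or stage 6 (1.07, 0.622). The stage 4 call rested on single arrays: it was lost without replicate 2 of the third joint (2.35, adjusted p = 0.31), without replicate 1 or 2 of the last joint (3.59 and 3.50, adjusted p = 0.123 and 0.134) and with the Gapdh covariate (2.40, 0.363). The stage 2 gap in turn was called with the Gapdh covariate (2.93, adjusted p = 0.0077), with the replicate block (2.21, 0.0284) and in 7 of 26 fits without 1 array. Of the 7 fits, 1 left out replicate 1 of the third joint at stage 2 (2.87). The others left out either array of the second joint at stage 2, of the third joint at stage 4 or of the leaf. Those arrays are outside this comparison and the difference stayed at 2.21, so only its p-value could change. MADS18 differed by 0.38, -0.029, -0.76 and -0.57 and was called at none of the stages (limma adjusted p from 0.359 to 0.995; unadjusted p under 0.05 at stage 5).

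**Figure D2:**
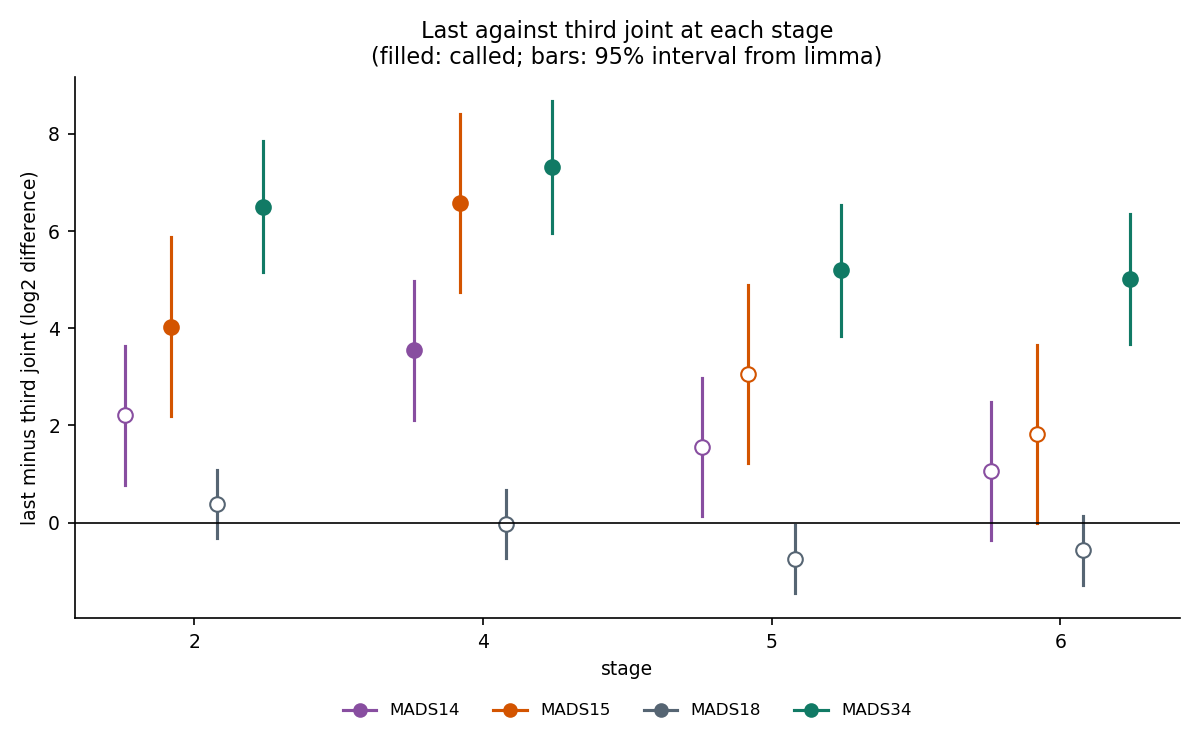
Difference in log2 expression between the last and the third joint at each stage, with 95% intervals from limma; filled points are called. MADS34 is called at all 4 stages (5.01 to 7.32), MADS15 at stages 2 and 4, MADS14 at stage 4 and MADS18 at none.

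The second comparison was of stages within the joints. From stage 2 to stage 4, when the joint matures, MADS34 was 1.97 ± 0.368 (SE) higher averaged over the 3 positions (limma adjusted p = 0.000458), one of 11.5% of probe sets called. The other 3 genes were not called: MADS14 at 0.83 (adjusted p = 0.133), MADS15 at 0.56 (0.483, and 1.04 and 0.118 without both arrays that stand apart) and MADS18 at 0.41 (0.129). MADS14 was called without replicate 1 of the second joint at stage 2 (1.14, adjusted p = 0.0334), without replicate 2 of the third joint at stage 4 (1.23, 0.0126), without both arrays that stand apart (1.23, 0.0153) and with the Gapdh covariate (1.29, 0.0149). None of the 4 was called from stage 4 to 5 (differences of -0.0719 to 0.67, and of -0.16 to 0.20 without the arrays that stand apart; adjusted p from 0.757 to 0.979; 0.695% of probe sets called) or from stage 5 to 6 (-0.30 to 0.58, adjusted p from 0.464 to 0.849; 1.74% called), and none had an unadjusted p under 0.05.

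The stage 2 to 4 step was largest in the second joint. There 3 of the 4 genes were called, against 10.9% of all probe sets. MADS34 averaged 9.53 at stage 4 and 5.04 at stage 2, a difference of 4.49 ± 0.637 (limma adjusted p = 9.72e-05). MADS15 averaged 9.82 and 6.01, a difference of 3.81 ± 0.868 (adjusted p = 0.00531), and MADS14 averaged 11.81 and 9.04, a difference of 2.76 ± 0.676 (adjusted p = 0.00875). MADS18 averaged 11.79 and 10.96 (0.82, adjusted p = 0.118). Without replicate 2 of the second joint at stage 2, MADS15 was at 2.87 (adjusted p = 0.0876) and MADS14 at 1.82 (0.151), and neither was called. MADS15 was also lost without replicate 2 of the second joint at stage 4 (3.55, 0.0532), and MADS14 without either array of that group (2.83 and 2.70, adjusted p = 0.0522 and 0.0614).

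In the last joint none of the 4 genes was called at any step (9.08%, 0.791% and 0.14% of probe sets called at the 3 steps), and their group means moved by at most 1.12, which was MADS34 at 11.74 in stage 4 against 10.62 in stage 2 (adjusted p = 0.335). In the third joint none was called either (14.5%, 0.754% and 1.03% of probe sets called). The largest steps there were of MADS15, which averaged 5.31 at stage 4 against 7.66 at stage 2 (a difference of -2.34, limma adjusted p = 0.0648) and 8.26 at stage 5 against 5.31 at stage 4 (2.95, adjusted p = 0.132). The first of these was called without replicate 2 of the third joint at stage 2 (-3.45) and without replicate 1 of the third joint at stage 4 (-3.80). It was also called without either leaf array. The leaf is outside this step and the difference stayed at -2.34, so only its p-value could change. Without replicate 2 of the third joint at stage 4 the first was -0.88 (adjusted p = 0.625) and the second 1.49 (0.658). The second was called without replicate 1 of the third joint at stage 4 (4.41, 0.02), as was the same step of MADS14 (3.05, adjusted p = 0.0319, against 1.85 and 0.241 with all arrays). That step of MADS14 was 0.66 without replicate 2 (adjusted p = 0.85). The first step of MADS14 was also called without that array (-2.00, adjusted p = 0.0476), and was 0.39 without replicate 2. In the second joint no gene was called from stage 4 to 5 (1.29% of probe sets called) or from stage 5 to 6 (3.93%). MADS34 differed by -1.06 and 1.21 at these steps. Without replicate 1 at stage 5, the array with the low upper quartile, the differences were -0.14 and 0.28. Without replicate 2 at stage 5 they were -1.98 and 2.13, the latter called. Averaged over the 3 positions, the stage 5 to 6 difference of MADS34 was 0.52, and 0.21 without that replicate 1.

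Whether the stage steps differed between the positions was tested directly by a limma F-test over 6 differences of steps, which 5.48% of all probe sets passed at an adjusted p under 0.05. MADS15 (adjusted p = 0.0306) and MADS34 (0.0355) passed, and MADS14 (0.159) and MADS18 (0.47) did not. MADS15 no longer passed in 10 of the 26 fits without 1 array (0.0527 to 0.0717), that without replicate 2 of the third joint at stage 4 among them (0.0555), and MADS34 in 14 (0.0531 to 0.08), the same fit among them (0.0729). With the Gapdh covariate neither passed (0.0525 and 0.0825). MADS14 passed without replicate 1 of the third joint at stage 4 (0.0257).

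Harvest day, which is fixed by position and stage together, lined the levels up in another way. The 6 joint arrays of days 50 and 55 read 7.50 to 10.16 for MADS14, and the 18 joint arrays of day 60 and later read 10.47 to 12.29, with no overlap. MADS15 read 3.85 to 8.77 on the early arrays and 7.99 to 11.93 on the later ones, and MADS34 read 3.46 to 6.32 and 5.71 to 12.05, each with a small overlap. MADS18 read 10.68 to 12.00 on the early arrays and 10.96 to 12.08 on the later ones. This split by day was made after the values were seen and is a description only.

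Over the 12 joint group means, day, taken as 7 classes, covered 89.9% of the variance of MADS14, 78.9% of MADS15 and 66.8% of MADS34, against a median of 67% over all probe sets. Position, taken as 3 classes, covered 49.1%, 60.9% and 80.2% of the same variances, against a median of 10.6%, and stage, taken as 4 classes, 24.7%, 10.8% and 11.5%, against 41.9%. For MADS18 the shares were 60% for day, 11.6% for position and 37.7% for stage. The shares are descriptions, they overlap, and more classes cover more variance.

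**Figure D3:**
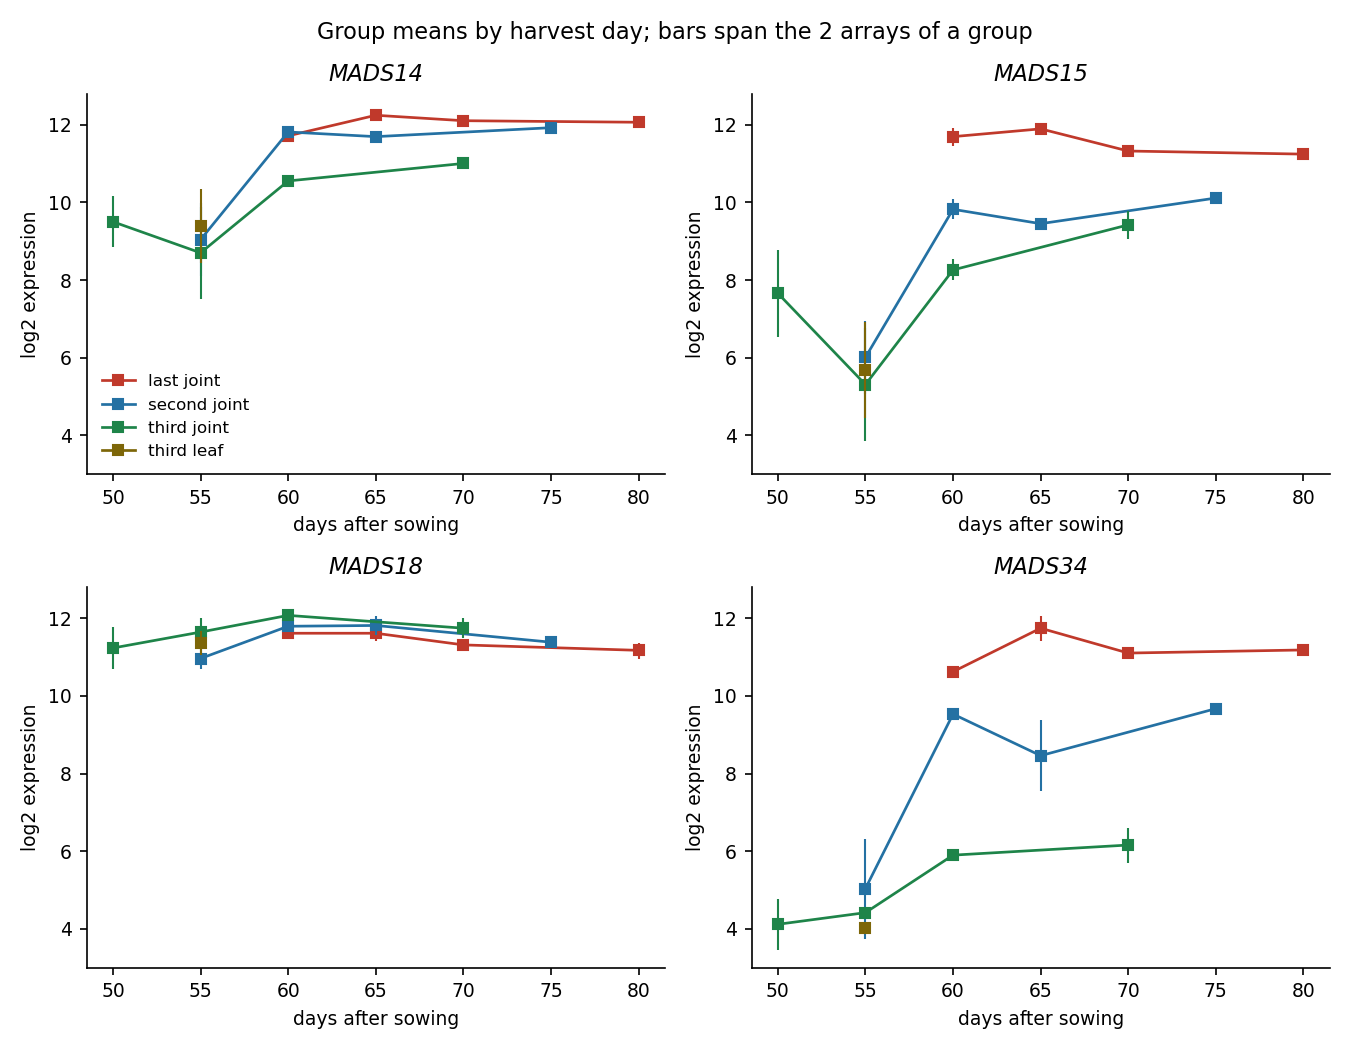
Mean log2 expression of each group against days after sowing, by leaf position; bars span the 2 arrays of a group. MADS34 lies at 10.62 in the last joint, 9.53 in the second and 5.90 in the third on day 60, while MADS14 lies at 11.71, 11.81 and 10.55.

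Joints harvested on the same day differ in stage, so these pairs compare position and stage together. On day 60, the third joint at stage 5 had 5.90 and 5.90 of MADS34, against 10.62 and 10.62 in the last joint at stage 2, a difference of -4.72 (limma adjusted p = 7.11e-05). MADS15 had 7.99 and 8.54, against 11.46 and 11.92, a difference of -3.42 (adjusted p = 0.0135). These 2 genes were called and the other 2 not, where 8.97% of probe sets were called. The MADS15 call was lost without replicate 1 or 2 of the last joint at stage 2 (adjusted p = 0.0553 and 0.092) or replicate 1 of the third joint at stage 5 (0.114).

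On day 70, MADS34 averaged 6.16 in the third joint at stage 6, against 11.10 in the last joint at stage 5, a difference of -4.93 (limma adjusted p = 0.00487). It was 1 of 47 probe sets called in that pair, or 0.0821%, and the call was lost without replicate 2 of the last joint at stage 5 (-4.94, adjusted p = 0.0734). On day 65, MADS34 averaged 8.46 in the second joint at stage 5 and 11.74 in the last joint at stage 4, a difference of -3.27 that was not called (adjusted p = 0.108; 0.0157% of probe sets called). Without replicate 2 of the second joint at stage 5 it was called at -4.19. It was also called without either array of the second joint at stage 2. Those arrays are outside this pair and left the difference at -3.27, so only its p-value could change. In these 3 same-day pairs MADS34 was lower in the lower leaf's joint, as at matched stages.

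The other same-day pairs gave no call for the 4 genes. On day 60, MADS34 averaged 5.90 in the third joint at stage 5 and 9.53 in the second joint at stage 4. The difference was -3.63 (limma adjusted p = 0.0624, with 0.0419% of probe sets called). It was called without either array of the second joint at stage 2 or at stage 5. Those arrays are outside this pair and left the difference at -3.63, so only its p-value could change. The second joint at stage 4 and the last joint at stage 2, also of day 60, differed by 0.0927 for MADS14, -1.87 for MADS15 and -1.09 for MADS34 (adjusted p = 0.975, 0.246 and 0.399; 6.36% of probe sets called). On day 55 the third joint at stage 4 and the second joint at stage 2 differed by -0.35, -0.70 and -0.62 for the same genes (adjusted p = 0.838, 0.717 and 0.642; 10.6% called). MADS14 and MADS15 turned to 0.85 and 0.76 without replicate 2 of the third joint at stage 4. MADS34 was called there without replicate 2 of the second joint at stage 2 (-1.91, adjusted p = 0.0419) and turned to 0.67 without replicate 1.

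With the groups of days 50 and 55 left out of the fit, an alternative chosen after seeing the data, the last joint was still higher than the third by 5.10 for MADS34, 2.44 for MADS15 and 1.31 for MADS14 (limma adjusted p = 3.3e-05, 0.000103 and 0.000103, over the stages where both positions remained). MADS34 and MADS15 were still higher in the last than in the second joint, by 2.12 (adjusted p = 0.00386) and 1.69 (0.000899), and MADS34 was higher in the second than in the third by 3.04 (0.00519). MADS14 was then called for the second against the third joint as well, at 1.03 (adjusted p = 0.00272). MADS18 was -0.67 in the last against the third joint, under 2-fold (adjusted p = 0.0386).

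For MADS14, MADS15 and MADS18 the arrays differed most from each other in the 4 groups of days 50 and 55. In the second joint at stage 2, the third joint at stage 2, the third joint at stage 4 and the third leaf, replicate 1 exceeded replicate 2 by 1.89, 1.31, 2.40 and 1.89 for MADS14 and by 1.88, 2.22, 2.92 and 2.47 for MADS15. For MADS18 the differences in the same groups were 0.56, 1.09, 0.73 and 0.61. For MADS34 they were 2.57, -1.32, 0.31 and 0.13. In the other 9 groups the 2 arrays differed by -0.26 to 0.23 for MADS14, by -0.55 to 0.74 for MADS15 and by -0.26 to 0.52 for MADS18. MADS34 had wide gaps in later groups too, at -1.84 in the second joint at stage 5, -0.90 in the third joint at stage 6 and -0.63 in the last joint at stage 4. Over all probe sets the arrays were furthest apart in the second joint at stage 5, with 10.3% over 1 apart. The third joint at stage 6 came next with 5.71%. The 4 early groups followed at 3.76% to 5.49%, with the last joint at stage 4 among them at 4.14%. The remaining groups lay at 0.386% to 2.36%.

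Replicate 1 was thus the higher array for MADS14, MADS15 and MADS18 in all 4 groups of days 50 and 55. Over the 13 groups the replicate differences of MADS14 and MADS15 correlated at r = 0.97, those of MADS15 and MADS18 at r = 0.80 and those of MADS14 and MADS34 at r = 0.43; all genes share the same arrays, so these are descriptions of 26 arrays. The Gapdh difference was 1.95 and 3.78 on the arrays of the third joint at stage 4, but 2.01 and 1.93 in the second joint at stage 2, 1.47 and 1.47 in the third joint at stage 2 and 1.78 and 1.82 in the leaf. The residual SD was 0.754 for MADS14, 0.972 for MADS15, 0.71 for MADS34 and 0.359 for MADS18, against a median of 0.214 over all probe sets.

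**Figure D4:**
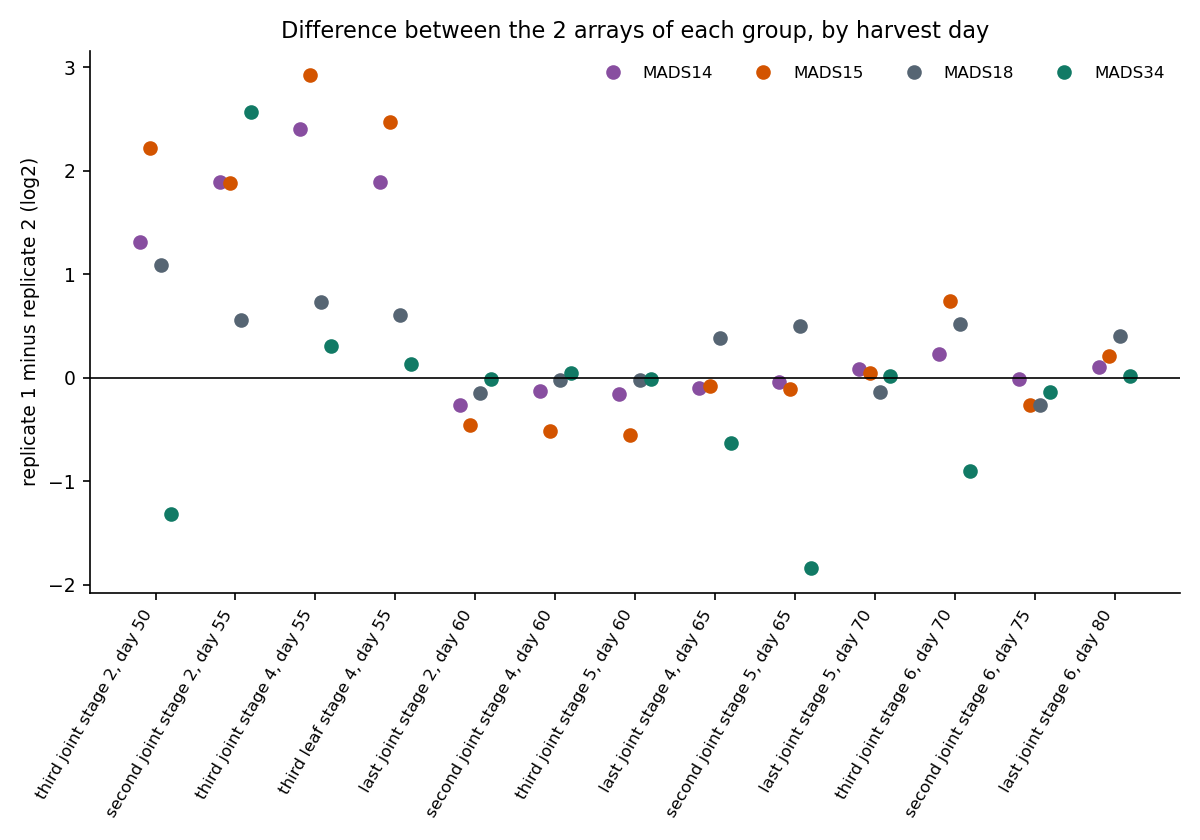
Replicate 1 minus replicate 2 in log2 expression for each of the 13 groups, ordered by harvest day. MADS14 and MADS15 lie between 1.31 and 2.92 in the 4 groups of days 50 and 55, and MADS14 lies between -0.26 and 0.23 in the other groups.

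In the order of the 13 group means, MADS34 ran from 11.74 in the last joint at stage 4 to 4.02 in the leaf, MADS15 from 11.89 in the last joint at stage 4 to 5.31 in the third joint at stage 4, MADS14 from 12.24 to 8.70 in the same groups, and MADS18 from 12.07 in the third joint at stage 5 to 10.96 in the second joint at stage 2. The arrays of 5 of the 12 neighbouring pairs overlapped for MADS34, 6 for MADS14, 8 for MADS15 and 11 for MADS18. For MADS34 the 7 highest groups, which are the whole last joint and the second joint from stage 4 on, were each apart from the next, and the 6 lowest were not. For MADS14 the overlapping neighbours were the last joint at stages 5 and 6, the second joint at stages 4 and 5 around the last joint at stage 2, and the 4 lowest groups.

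The third joint was compared with the adjacent leaf at stage 4, when 7.41% of all probe sets were called and 0 of the 4 genes. MADS14 read 9.89 and 7.50 in the joint, against 10.33 and 8.44 in the leaf (a difference of -0.69, limma adjusted p = 0.674). MADS15 read 6.77 and 3.85, against 6.93 and 4.46 (-0.38, adjusted p = 0.89). MADS18 read 12.00 and 11.27, against 11.66 and 11.04 (0.29, 0.735), and MADS34 read 4.57 and 4.26, against 4.09 and 3.96 (0.39, 0.832). All 4 had an unadjusted p over 0.05. The 95% interval was widest for MADS15, at -2.21 to 1.46, and MADS34 lay at the bottom of its range in both tissues. Without replicate 2 of the joint MADS14 and MADS15 turned to 0.51 and 1.08.

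The other probe sets of MADS14 and MADS15 moved like the brightest ones. The 3 others of MADS14 differed between the last and the third joint by 1.89, 2.33 and 2.50, all called, and their joint group means followed the brightest at r of 0.98 or more (12 groups, as a description). Of MADS15, 2 others differed by 3.53 and 3.54. The last one, a dim probe set that ran from 3.17 to 4.94, differed by 1.02 and was also called (limma adjusted p = 0.000217). Several of these probe sets carry the suffixes x, s or a, which mark probes that can bind more than 1 transcript, and whether similar MADS-box transcripts share signal here was not tested.

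Over the 12 joint group means MADS14, MADS15 and MADS34 followed each other at r = 0.92 to 0.95, and MADS18 followed them at r = -0.01 to 0.19. Among 2086 other named genes, those most like MADS14 were Rurm1 (r = 0.92), BGLU5 (0.86) and BADH (0.82), and those most like MADS15 were Rurm1 (0.85), BGLU5 (0.85) and ARG1 (0.83). MADS34 was most like OsSPS4F (0.87), Rurm1 (0.86) and OsNrx1-2 (0.85), and MADS18 most like MYBS2 (0.91), PSK2 (0.88) and DREB1E (0.84). The likeness is of shape and not of size. Rurm1 averaged 5.67 in the last joint and 5.40 in the third, and BGLU5 8.83 and 8.07, so neither changed on the scale of the MADS genes. All points come from the same 24 joint arrays.

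The rest of the MADS-box family held no gene called in this direction. Of 27 other measured MADS-box genes, 0 were called higher in the last than in the third joint and 2 were called lower, with a median difference of -0.01, against -0.0132 over all probe sets, of which 1.14% were called. The 2 were MADS47, a relative of the SVP genes known for a part in brassinosteroid responses (-1.36, limma adjusted p = 7.87e-06), and MADS50, a promoter of flowering related to SOC1 (-1.20, adjusted p = 0.000285). MADS47 was also lower in the last than in the second joint (-1.08, adjusted p = 0.000855), the only one of the 27 called there, where 0.189% of all probe sets were called. Between the second and the third joint limma called 0 of the 27, with 6 at an unadjusted p under 0.05 (0.375% of all probe sets called).

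MADS50 had group means of 8.17, 7.46, 6.96 and 6.73 over the stages of the last joint, and MADS47 lay between 7.45 and 8.01 there, against 8.84 to 9.61 in the third joint. Both thus lay on the other side of zero from MADS14, MADS15 and MADS34. From stage 2 to 4, 2 of the 27 were called higher, MADS26 (1.59) and MADS1 (1.08), and 1 lower, MADS5 (-1.21); 3 of 27 is near the 11.5% of all probe sets called at that step. From stage 4 to 5 limma called 0, with 6 at an unadjusted p under 0.05 (0.695% of all probe sets called), and from stage 5 to 6 it called 1, MADS1 at 1.15 (1.74%). Against the leaf, the third joint was higher in MADS2 (1.38) and lower in MADS57 (-3.37) and MADS26 (-1.98). These are 3 of 27, where 7.41% of all probe sets were called.

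**Figure D5:**
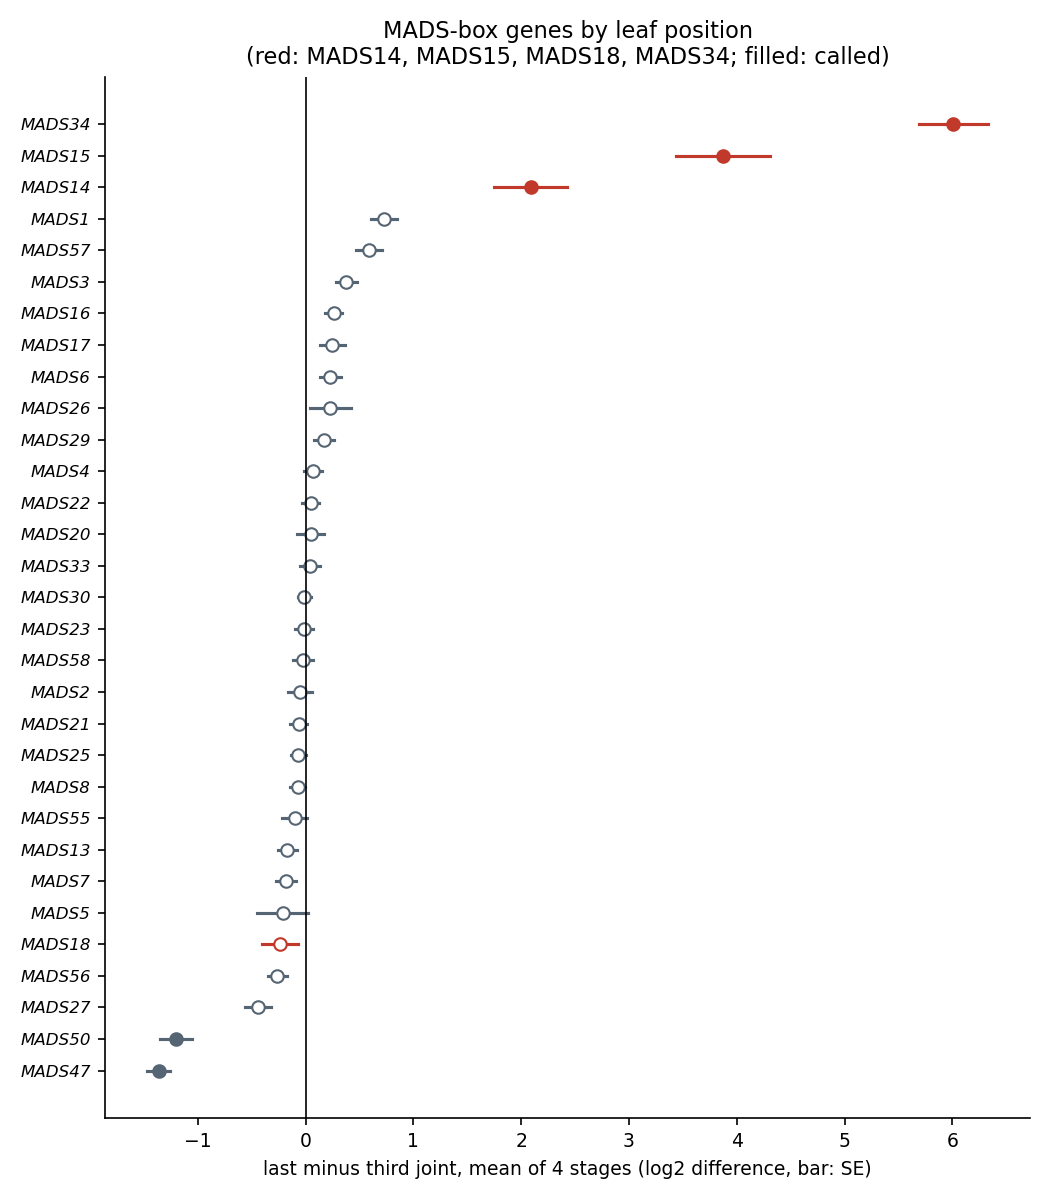
Difference in log2 expression between the last and the third joint, averaged over the 4 stages, for 31 MADS-box genes, with the SE from limma; red marks MADS14, MADS15, MADS18 and MADS34, and filled points are called. MADS34, MADS15 and MADS14 lie at 6.01, 3.87 and 2.09, and MADS50 and MADS47 at -1.20 and -1.36.

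Genes that act upstream in the photoperiod and florigen pathway were taken from a list of 28 names, of which 14 were matched. Between the last and the third joint 0 of them were called higher and 1 lower, MADS50, which the family list also holds, where 1.14% of all probe sets were called. Limma called 0 of the 14 between the last and the second joint, with 4 at an unadjusted p under 0.05 (0.189% of all probe sets called), and 0 between the second and the third, with 3 (0.375%). From stage 2 to 4 it called 1 higher, Hd1, the rice CONSTANS gene, at 1.85 (adjusted p = 6.06e-06), which averaged 5.20 to 6.27 in the joints at stage 2. A single call of 14 is under the 11.5% of all probe sets called at that step. From stage 4 to 5 and from stage 5 to 6 it called 0, with 1 and 4 at an unadjusted p under 0.05 (0.695% and 1.74% of all probe sets called). Hd3a, a florigen gene, had group means of 3.42 to 3.89 in all joints, under the array medians, and differed by -0.0129 between the last and the third joint (adjusted p = 0.965). GI, a clock-linked gene that acts ahead of Hd1, differed by 0.00207 on average (limma adjusted p = 0.998). This average covers gaps of both signs. In the last and the third joint its group means were 11.46 and 12.22 at stage 2, and 13.18 and 12.71 at stage 4. They were 12.57 and 11.50 at stage 5, and 11.98 and 12.74 at stage 6.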

How the data were processed

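Total RNA of hand-cut tissue was hybridised to 1-colour Affymetrix rice arrays. The deposited values are log2 expression per probe set, which the authors made with RMA according to the submitters' processing notes. No version or settings are given in the sources used here. The table holds 57381 probe sets, of which 123 controls were left out. Within groups 0.0238% of values were identical, so no arrays were merged. Probe sets were named through the platform annotation and RefSeq's gene table (assembly ASM3414082v1).

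The 26 arrays were fitted jointly in limma 3.58.1 under R 4.3.3, with 13 group means (13 residual and 3.52 prior degrees of freedom, prior SD 0.206), tested on simulated data first. limma's tests are two-sided; precision is limited by the number of arrays. No values were rescaled or floored. Alternatives were a replicate block, an intensity trend, quantile normalisation, the Gapdh 3′ minus 5′ difference as covariate, a filter on dim probe sets, all probe sets of a gene averaged, only the arrays compared, and each array left out. Besides the members, the text names called genes of the family and photoperiod lists, at most 3 per contrast, and for each member the 3 named genes brighter than the median probe set with the highest Pearson correlation over 12 joint group means; Hd3a, GI and MADS1 in the position comparison were picked after their values were seen. The members and lists were chosen with earlier results of these data known. No sequence is shown.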

Additional observations from a re-analysis of the deposited data

Results flagged for a closer look

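The stage steps of MADS15 and MADS34 differed between leaf positions by a limma F-test over 6 differences of steps, which is what brought them here (adjusted p = 0.0306 for MADS15 and 0.0355 for MADS34, with 5.48% of all probe sets past 0.05). From stage 2 to 4, MADS34 moved by 4.49 in the second joint, 1.12 in the last and 0.30 in the third, and MADS15 by 3.81, 0.20 and -2.34. For MADS15 the adjusted p was over 0.05 in 10 of the 26 fits without 1 array, at 0.0527 to 0.0717: those without replicate 2 of the last joint at stage 2 or 5, either array of the last joint at stage 6, replicate 2 of the second joint at stage 2, either array of the second joint at stage 4, replicate 2 of the third joint at stage 4 and either array of the third joint at stage 5. For MADS34 it was over 0.05 in 14 of them, at 0.0531 to 0.08: those without either array of the last joint at stages 2, 5 or 6, of the second joint at stages 4 or 6, or of the third joint at stages 4 or 5. With the Gapdh covariate the values were 0.0525 for MADS15 and 0.0825 for MADS34.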

How the results depend on the processing

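The position calls of MADS34, MADS15 and MADS14 in the last against the third joint, of MADS34 and MADS15 in the last against the second, and of MADS34 in the second against the third were made in all 26 fits without 1 array and in 9 other alternatives. Calls within single groups rest on 2 arrays a group, and the arrays of days 50 and 55 differ by up to 2.92 for MADS15. Since each probe set has 1 spread for all groups, these gaps enter the SE of every comparison, also of later groups. For MADS14 in the last minus the third joint at stage 5 the SE was 0.676. The 2 arrays there differed by 0.08 in the last joint and by -0.16 in the third. Leaving out the arrays that stand apart and leaving out days 50 and 55 were chosen after seeing the data. The cause of the changes below was not tested.

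The main fit did not pair the arrays by replicate number. Over 78 pairs of groups the deviations of same-numbered arrays correlated at -0.31 to 0.55 (median 0.0397, 24 over 0.1). Between groups of the same harvest day they correlated at 0.00502 to 0.32. Whether same-numbered arrays of one day belong together was not tested. With the replicate block the count for the second joint at stage 5 minus the last joint at stage 4 was 14, and 3 member results gained a call: MADS14 in the second against the third joint (adjusted p = 0.0499) and in the last against the third at stage 2 (0.0284), and MADS15 from stage 2 to 4 in the third joint (0.0423).

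The Gapdh covariate is no independent check, since its slope comes only from gaps within groups. The widest gap, 1.95 against 3.78 in the third joint at stage 4, weighs most in it. The next is 2.93 against 3.33 in the last joint at stage 5. With the Gapdh covariate, differences that were not called turned sign. MADS14 was 0.69 for the third joint at stage 4 minus the second joint at stage 2, -0.0334 for the second joint at stage 4 minus the last joint at stage 2, 0.54 for joint minus leaf, 0.81 from stage 2 to 4 in the third joint, and 1.32 and 0.0167 at the later steps in the last joint. MADS15 was 0.56 for the third joint at stage 4 minus the second joint at stage 2, 1.12 for joint minus leaf, and -0.11 and 1.21 at the stage 2 to 4 and 4 to 5 steps in the last joint. MADS18 was 0.0401 for the last minus the second joint, 0.13 and -0.0197 from stage 4 to 5 in the last and second joint, and from stage 5 to 6 0.0142 on average, 0.0684 in the second joint and 0.097 in the third. Without the arrays that stand apart, joint minus leaf was 0.51 for MADS14 and 1.08 for MADS15, and stage 5 minus stage 4 was -0.16 for MADS18 and 0.18 for MADS34; the last was 0.0102 after quantile normalisation.

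Without 1 array, uncalled differences that turned sign ranged as follows. For the third joint at stage 4 minus the second joint at stage 2 MADS14 ran from -1.55 to 0.85, MADS15 from -2.16 to 0.76 and MADS34 from -1.91 to 0.67. For joint minus leaf MADS14 ran from -1.89 to 0.51, MADS15 from -1.84 to 1.08 and MADS18 from -0.0783 to 0.65. For stage 4 minus stage 2 in the third joint MADS14 ran from -2.00 to 0.39, MADS18 from -0.13 to 0.96 and MADS34 from -0.36 to 0.96, and in the last joint MADS15 from -0.0305 to 0.43 and MADS18 from -0.19 to 0.19. For stage 6 minus stage 5 in the last joint MADS14 ran from -0.0947 to 0.00819, MADS15 from -0.18 to 0.0293 and MADS18 from -0.34 to 0.0612, and in the third joint MADS34 from -0.19 to 0.71. For stage 5 minus stage 4 MADS18 ran from -0.0727 to 0.17 and MADS34 from -0.38 to 0.24 on average, and MADS18 from -0.23 to 0.27 in the second joint. MADS14 ran from -0.0369 to 0.22 for the second joint at stage 4 minus the last joint at stage 2. MADS18 also ran from -0.0513 to 0.44 for the second joint at stage 5 minus the last joint at stage 4, from -0.13 to 0.00725 for the last minus the second joint, and for the last minus the third joint from -0.16 to 0.93 at stage 2 and from -0.39 to 0.34 at stage 4.

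Counts of all probe sets called moved by over 1.5 times as follows. With the Gapdh covariate they were 36, 34 and 289 for the last minus the third joint at stages 4, 5 and 6, 45 for the third joint at stage 5 minus the second joint at stage 4, 22 for the second joint at stage 5 minus the last joint at stage 4, 15 and 165 for stage 5 minus stage 4 in the last and the third joint, and for stage 6 minus stage 5 357 on average, 1066 in the second joint and 53 in the third. With only the arrays compared they were 2118 for joint minus leaf and 106 for the second minus the third joint, and without days 50 and 55 191 for the last minus the second and 42 for the second minus the third joint.

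Without 1 array the counts ran from 62 to 226 for the last minus the second joint, from 115 to 395 for the second minus the third, and for the last minus the third from 2004 to 4105, 47 to 689, 16 to 723 and 20 to 429 at stages 2, 4, 5 and 6. For stage 5 minus stage 4 they ran from 243 to 720 on average, 49 to 604 in the last joint, 94 to 4965 in the second and 43 to 773 in the third. For stage 6 minus stage 5 they ran from 652 to 1627 on average, 15 to 135 in the last joint, 341 to 6407 in the second and 78 to 818 in the third. In same-day pairs they ran from 1983 to 3906 for the second joint at stage 4 minus the last joint at stage 2, 3210 to 5336 for the third joint at stage 5 minus the last joint at stage 2, 0 to 45 for the third joint at stage 5 minus the second joint at stage 4, 1 to 3311 for the second joint at stage 5 minus the last joint at stage 4 and 9 to 94 for the third joint at stage 6 minus the last joint at stage 5. The F-test passed 1965 to 8232. The highest counts of the second joint at stage 5 came without its replicate 2.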
